A study of Mus musculus with 4 samples.

Results

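Genes of the Th17 program, 5 in all, were followed across 4 RNA-seq libraries of mouse CD4+ T cells: the cytokine genes Il17a and Il17f, the nuclear receptor gene Rora, the ligand-activated transcription factor gene Ahr and the interleukin-1 receptor gene Il1r1. They were taken by gene symbol, and all 5 were among the 11027 genes listed for every library. The cells came from the spleens and lymph nodes of wild-type C57BL/6 mice aged 7 to 8 weeks. They were naive at the start, were activated and given a retrovirus in neutral medium, were sorted for GFP and then went into either culture. The 4 groups were Tfh-like culture with the Tox2 virus, Tfh-like culture with the GFP-only virus, Th0 culture with the Tox2 virus and Th0 culture with the GFP-only virus. Antibodies to IL-2, IL-4 and IFN-gamma were present in both cultures, and IL-6 was added in the Tfh-like one. Each group is 1 library, so no value below has a replicate check; the sources used here do not say how many animals a library holds or whether they were pooled. In the Tox2 groups the factor was expressed from the virus, above the cells' own level.

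Th17 cells are helper T cells that secrete IL-17A and IL-17F, which act on epithelial and stromal cells to recruit neutrophils. Their fate is set by IL-6, which signals through STAT3, together with TGF-beta, and by ROR nuclear receptors that bind the IL-17 locus; IL-1 and IL-23 reinforce it. Ahr senses aromatic ligands and raises cytokine output in Th17 cells, and the IL-6 culture used for Tfh-like cells shares the STAT3 signal with them.

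Il17a (chromosome 1, 20730905 to 20734496, plus strand, GRCm38) and Il17f (chromosome 1, 20777146 to 20790617, minus strand) stand tail to tail, 42649 bases apart, with 0 annotated genes between them. Their promoters are shown because the transcripts of both genes were lower with Tox2 in both cultures and higher with IL-6. Each line gives the 250 bases before the RefSeq start site on the gene's strand (GRCm38.p6), for Il17a chr1:20730655-20730904 and for Il17f chr1:20784271-20784520. The GENCODE gene model of Il17f begins further upstream. Capitals mark AGGTCA, the core of the ROR binding site, read on either strand.
Il17a: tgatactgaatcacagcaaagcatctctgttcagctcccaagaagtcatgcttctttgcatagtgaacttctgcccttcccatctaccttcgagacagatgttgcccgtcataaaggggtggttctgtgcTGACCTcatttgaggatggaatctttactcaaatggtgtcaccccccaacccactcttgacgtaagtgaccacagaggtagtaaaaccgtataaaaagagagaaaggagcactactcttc
Il17f: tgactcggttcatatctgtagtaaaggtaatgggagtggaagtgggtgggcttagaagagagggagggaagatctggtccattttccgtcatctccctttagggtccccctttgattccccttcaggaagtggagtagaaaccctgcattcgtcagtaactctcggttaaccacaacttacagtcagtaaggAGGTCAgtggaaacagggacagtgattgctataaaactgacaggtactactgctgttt
The core begins 120 bases before the start site in Il17a, on the opposite strand, and 58 bases before it in Il17f, on the gene's strand. It occurs in 14.03% of all 32841 RefSeq windows of this length, so a match in both is a description and not a site. TATAAA begins 31 bases before the start in Il17a and 29 bases before it in Il17f (12.4% of windows). TGANTCA, an AP-1 motif, was found once in the Il17a window and not in that of Il17f (6.75% of windows), and TTCNNNGAA, a STAT motif, was in neither (7.02%). GCGTG, the core of the Ahr site, was in neither as well (28.2%). In the windows of Rora and of both Il1r1 start sites AGGTCA did not occur, and GCGTG occurred once in that of Rora and once in 1 of those of Il1r1. All motifs were read on both strands.

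The other genes lie apart from this pair. Il1r1 is on chromosome 1 (40225080 to 40317257, plus strand), Rora on chromosome 9 (68653786 to 69388246, plus strand) and Ahr on chromosome 12 (35497974 to 35535038, minus strand). Other annotated genes overlap 3 of the 5. Gm15511 lies antisense within Rora, Gm48236 on the opposite strand of Ahr, and Gm38070 on the strand of Il1r1. The sources used here name no strand setting for the counting, so reads from either strand of Rora and Ahr cannot be told apart. Gm38070 and Il1r1 share a strand, so no strand setting would separate them. The overlaps are of whole gene spans, introns included, and none of the overlapping genes was listed. Whether counted reads are shared was not tested.

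Total counts per library were between 13015283 and 13673774. Tox2 itself had 32246 counts in Tfh-like with Tox2 and 851 in Tfh-like with GFP, and 35297 in Th0 with Tox2 and 144 in Th0 with GFP, so in both cultures it was higher in the library named for Tox2. Of 12 CD4+ T-cell markers, 9 were listed, with a summed level between 5081 and 5740 CPM (counts scaled to library size), and Cd4 alone was between 1105 and 1750 CPM. Among cells that could also make IL-17, 0 of 8 gamma-delta T-cell markers were listed; the alpha-beta receptor constant genes were not listed either, so the receptor genes among them say little. All 5 ILC3 markers were listed, with summed levels of 453 and 480 CPM in Tfh-like with Tox2 and with GFP and 357 and 530 CPM in Th0 with Tox2 and with GFP. Kit, among them, was higher with Tox2, at 10.7 CPM with Tox2 and 1.53 CPM with GFP in Tfh-like. In Th0 Kit had 12.5 CPM with Tox2 and 1.93 CPM with GFP. Id2 and Tnfsf11 were lower with Tox2 in both cultures. With Tox2 and with GFP, Id2 had 263 and 305 CPM in Tfh-like and 37.6 and 64.3 CPM in Th0. Tnfsf11 had 102 and 109 CPM in Tfh-like and 169 and 320 CPM in Th0. Cxcr6 was higher with Tox2 in Tfh-like (23.9 and 6.36 CPM) and lower in Th0 (4.25 and 11.9 CPM). Nrp1 had 53.3 and 58.4 CPM in Tfh-like and 133 and 132 CPM in Th0. The part of such cells in the results was not tested. Of the NK-cell markers 0 of 4 were listed, of the B-cell markers 2 of 6 (2.90 to 29.9 CPM), of the myeloid markers 2 of 7 (7.43 to 13.3 CPM), of the CD8 markers 1 of 2 (9.14 to 15.4 CPM) and of the NKT or MAIT markers 1 of 3 (0.144 to 3.29 CPM). The B-cell sum was higher in the Tfh-like libraries, with 28.8 CPM with Tox2 and 29.1 CPM with GFP from Ebf1; its part in the results was not tested. In RNA from many cells, fewer cells that make a transcript and less of it per cell cannot be told apart.

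Both IL-17 transcripts fell with Tox2. Il17a, which encodes the founding IL-17 cytokine, had 355 counts in Tfh-like with Tox2 and 2125 in Tfh-like with GFP, and 1 count in Th0 with Tox2 and 56 in Th0 with GFP. The Tox2 library was the lower one in each culture, and the highest Il17a of all was in Tfh-like with GFP. As deposited FPKM, a level per transcript length and library size, these were 18.3, 111, 0.0495 and 2.81. The ratio of scaled counts, Tox2 over GFP, was 0.163 in Tfh-like (95% counting interval 0.145 to 0.182). In Th0 it was 0.0173, and with 1 read on the Tox2 side its interval runs from 0.00043 to 0.1003. Intervals here and below cover counting error alone, because each group is 1 library. Reads that carry no molecular identifier may be copies of 1 molecule, which would make these intervals too narrow. From high to low the order was Tfh-like with GFP, then Tfh-like with Tox2, then Th0 with GFP and last Th0 with Tox2, and each neighbour in this order differed beyond the counting interval.

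Il17f, the paralogue whose product pairs with IL-17A or with itself, had 2593 counts in Tfh-like with Tox2 and 12709 in Tfh-like with GFP, and 70 in Th0 with Tox2 and 1018 in Th0 with GFP. It followed the same order as Il17a, again with every neighbour apart beyond counting error. Its FPKM values in that sequence were 77.2, 386, 2.01 and 29.6, the highest of the 5 genes in 3 of the 4 libraries; in Th0 with Tox2 Rora stood above it at 4.71 FPKM. The ratio of scaled counts was 0.199 in Tfh-like (0.191 to 0.208) and 0.0665 in Th0 (0.0515 to 0.0848), that is 5.02-fold and 15.0-fold lower with Tox2.

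A linear model of culture plus virus over all 4 libraries (edgeR's quasi-likelihood test) gave the effect of Tox2 over both cultures. Its 1 residual degree of freedom is how far the Tox2 effect differed by culture, moderated across genes, so its p-values measure no spread between replicates. Il17a fell by 2.78 on the log2 scale (SE 0.27, edgeR adjusted p = 0.00557) and Il17f fell by 2.92 (SE 0.32, edgeR adjusted p = 0.00797). With DESeq2 the Il17a call was lost (adjusted p = 0.0561; edgeR and limma alternatives 0.000252 to 0.0227), while Il17f passed in all 8 alternatives (0.000306 to 0.0496). Of the 5 genes 2 fell, 1 rose and 2 did not pass; among all 10960 genes compared 2.74% fell and 4.07% rose, 6.81% in either direction.

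By counting error, the size of the Tox2 fold was not the same in the cultures. The log2 fold of Il17f was -2.33 in Tfh-like and -3.87 in Th0, a difference of 1.54 (counting interval 1.19 to 1.89). For Il17a the folds were -2.61 and -4.29 and the difference was 1.68 (0.01 to 3.34), which rests on the 1 read in Th0 with Tox2: with a prior count of 10 in place of 2 it was 0.0053. This difference leaves no degree of freedom and could be given only with counting error. By this measure 3 of the 5 genes had a fold at least 2-fold higher in Tfh-like (Il17a, Il17f and Il1r1) and 1 a fold at least 2-fold lower (Ahr); of all genes 1.78% and 1.96% did, 3.74% in either direction.

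**Figure D1:**
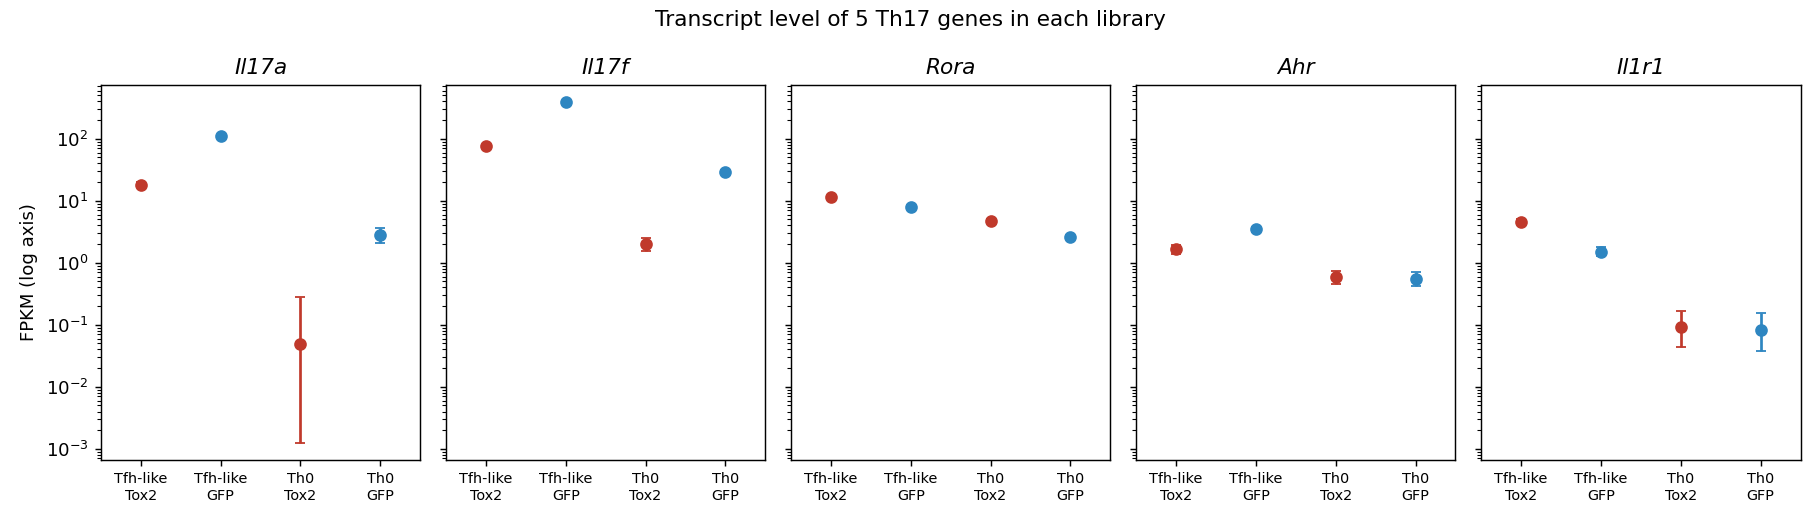
Level of each gene in FPKM (shared log axis) in the 4 libraries, Tox2 in red and GFP in blue, 1 point per library with its 95% Poisson counting interval. Il17a and Il17f sit lower with Tox2 in both cultures, Rora higher, Ahr lower in Tfh-like, and Il1r1 higher in Tfh-like.

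The makeup of the IL-17 transcripts also varied. Il17a made up 12.0% of the Il17a plus Il17f counts in Tfh-like with Tox2 (exact Clopper-Pearson 95% interval 10.9 to 13.3) and 14.3% in Tfh-like with GFP (13.8 to 14.9). In Th0 the share was 1.41% with Tox2 (0.0357 to 7.60), where it is 1 of 71 reads, and 5.21% with GFP (3.96 to 6.72). The share was thus lower in Th0 than in Tfh-like with either virus, and the Tox2 and GFP intervals overlapped in Th0 but not in Tfh-like. Per length, Il17f exceeded Il17a by 4.23-fold in FPKM in Tfh-like with Tox2, 3.46-fold in Tfh-like with GFP and 10.5-fold in Th0 with GFP.

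**Figure D2:**
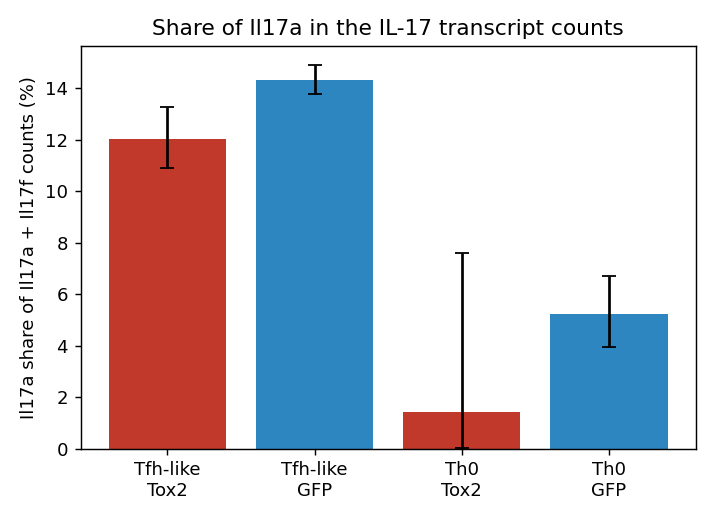
Share of Il17a in the summed Il17a and Il17f counts (percent, y axis) in each library, with exact 95% binomial intervals as error bars. The Tfh-like libraries stand at 12.0% and 14.3% and the Th0 libraries at 1.41% and 5.21%.

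Rora moved the other way. It encodes ROR-alpha, a nuclear receptor that promotes the Th17 fate in mouse cells. Rora had 2459 counts in Tfh-like with Tox2 and 1717 in Tfh-like with GFP, and 1061 in Th0 with Tox2 and 586 in Th0 with GFP. The Tox2 library was the higher one in each culture, and all neighbours in the order of levels were apart beyond counting error. In FPKM these were 11.3, 8.07, 4.71 and 2.64. The ratio of scaled counts with Tox2 was 1.40 in Tfh-like (1.31 to 1.49) and 1.75 in Th0 (1.58 to 1.94), short of 2-fold in both. Over both cultures Rora rose by 0.64 on the log2 scale (SE 0.12, edgeR adjusted p = 0.0326), and it passed in all 8 alternatives (0.00898 to 0.0405). The log2 fold was lower in Tfh-like than in Th0 by a difference of -0.32 (counting interval -0.50 to -0.15).

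Ahr, which encodes the aryl hydrocarbon receptor, was lower with Tox2 in the Tfh-like pair. It had 169 counts in Tfh-like with Tox2 and 347 in Tfh-like with GFP, but 62 in Th0 with Tox2 and 58 in Th0 with GFP. The Th0 libraries did not differ beyond counting error (ratio of scaled counts 1.03, interval 0.711 to 1.51). In Tfh-like the ratio was 0.475 (0.393 to 0.573). FPKM was 1.65, 3.46, 0.583 and 0.553 in the same sequence of libraries. Over both cultures the effect was -0.62 on the log2 scale (SE 0.29, edgeR adjusted p = 0.219) and did not pass, in edgeR or in any alternative (0.0998 to 0.621). The difference of the log2 folds, Tfh-like minus Th0, was -1.11 (counting interval -1.68 to -0.54).

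Il1r1, the signalling receptor for IL-1, was near the limit of detection in Th0 and higher with Tox2 in Tfh-like. It had 487 counts in Tfh-like with Tox2 and 157 in Tfh-like with GFP, against 10 in Th0 with Tox2 and 9 in Th0 with GFP. The ratio of scaled counts was 3.03 in Tfh-like (2.52 to 3.65). In Th0 it was 1.08 (0.393 to 2.99), an interval whose upper end lies just under the ratio in Tfh-like, so smaller differences in either direction were not detectable at this depth. FPKM was 4.61 and 1.51 in Tfh-like and 0.0911 and 0.0832 in Th0, with Tox2 and GFP in that order. The effect over both cultures was 1.36 (SE 0.31), with an edgeR adjusted p of 0.0514 that misses the threshold of 0.05. It passed with limma-voom (adjusted p = 0.0176), with DESeq2's size factors in edgeR (0.0438) and with libraries scaled by their sum (0.0191), but not with DESeq2 (0.192). The difference of the log2 folds was 1.5 (counting interval 0.29 to 2.71).

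In single pairs, 3 of the 5 genes were at least 2-fold lower with Tox2 in Tfh-like (Il17a, Il17f and Ahr) and 1 at least 2-fold higher (Il1r1), where 1.9% and 2.86% of all genes were (4.75% in either direction). In Th0, 2 were lower (Il17a and Il17f) and 0 higher, where 1.56% and 3.18% of all genes were (4.74% in either direction). The 5 genes were chosen with earlier results of these libraries known, so these shares are a description.

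**Figure D3:**
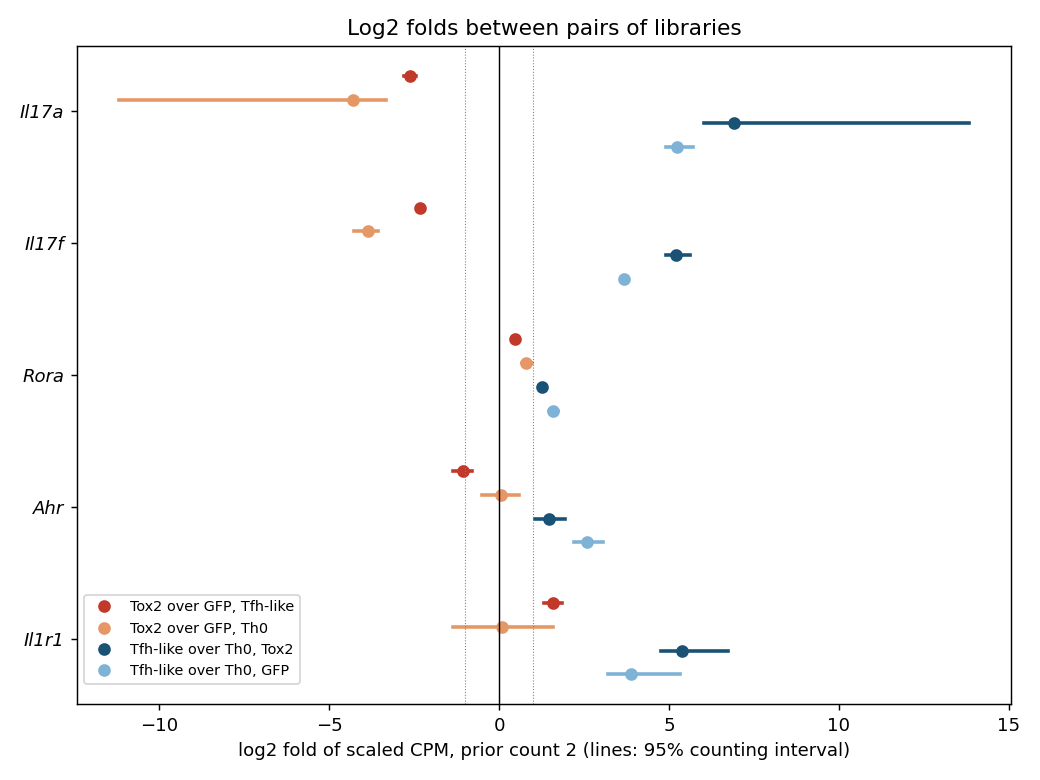
Log2 fold of scaled CPM (x axis, prior count 2) of each gene in 4 pairs of libraries, with 95% counting intervals as lines and dotted lines at 2-fold. With Tox2, Il17a and Il17f lie left of the line at 0 in both cultures and Rora right of it, and every fold of Tfh-like over Th0 lies right of the 2-fold line.

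The second comparison asked how the genes stood in the culture with IL-6 against the culture without it. All 5 were higher in Tfh-like with either virus, each by more than 2-fold, where 6.56% of all genes were so with Tox2 and 7.78% with GFP. In the other direction 2.86% of all genes were at least 2-fold apart with Tox2 and 3.11% with GFP, or 9.43% and 10.9% in either direction. For Il17a the ratio of scaled counts, Tfh-like over Th0, was 368.5 with Tox2 (65.7 to 14594, against 1 read) and 39.1 with GFP (30.0 to 51.9). For Il17f it was 38.4 with Tox2 (30.3 to 49.5) and 12.9 with GFP (12.1 to 13.7). The receptor gene Il1r1 had ratios of 50.5 with Tox2 (27.3 to 106) and 17.96 with GFP (9.22 to 40.0). The factors had smaller ones: 2.83 with Tox2 (2.10 to 3.85) and 6.16 with GFP (4.65 to 8.28) for Ahr, and 2.41 with Tox2 (2.24 to 2.59) and 3.02 with GFP (2.75 to 3.32) for Rora.

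In the linear model all 5 rose with the culture over both viruses. The log2 effect was 5.58 for Il17a (SE 0.30, edgeR adjusted p = 0.000189), 5.03 for Il1r1 (SE 0.35, adjusted p = 0.000367) and 4.29 for Il17f (SE 0.34, adjusted p = 0.000529). It was 2.08 for Ahr (SE 0.29, edgeR adjusted p = 0.00411) and 1.43 for Rora (SE 0.12, adjusted p = 0.000698). Each passed in all 8 alternatives. Of all genes compared 14.3% rose and 9.96% fell, 24.2% in either direction (1564 rose and 1092 fell; 1500 and 1649 with libraries scaled by their sum). The pairs with Tox2 and with GFP share no library.

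Il17a and Il17f were lower in Tfh-like with Tox2 than in Tfh-like with GFP, but still above Th0 with GFP, by 6.37-fold in scaled counts for Il17a (4.79 to 8.60) and 2.56-fold for Il17f (2.38 to 2.75). Rora and Il1r1 were highest in Tfh-like with Tox2, and Il17a, Il17f and Ahr in Tfh-like with GFP. The root-mean-square distance between the centred log2 levels over the 4 libraries was 0.83 between Il17a and Il17f, 0.68 between Rora and Ahr, and between 1.61 and 2.26 from Il1r1 to each of the others. The distance of 0.83 rests in part on the 1 Il17a read in Th0 with Tox2. A small distance does not mean the same direction with Tox2: in Tfh-like the ratio of scaled counts was 1.40 for Rora and 0.475 for Ahr.

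Among the 9997 other named genes that reached a CPM of 5 in at least 1 library, those with a pattern near to each member over the 4 libraries were identified by the same distance. Among the 3 nearest to Il17a were Il17f (0.83) and the metalloproteinase inhibitor gene Timp1 (1.004). Among the 3 nearest to Il17f were Serpinb1a, a serine protease inhibitor gene (0.72), and Il17a. The distances from the 2 cytokine genes are large and rest in part on Th0 counts near 0. Rora and Ahr had much closer neighbours. They were Naprt (0.05), the lipoprotein receptor gene Vldlr (0.08) and Zeb2 (0.09) for Rora. For Ahr they were the acid-sensing receptor gene Gpr65 (0.04), the prolyl hydroxylase gene Egln3 (0.07) and Rnf208 (0.07). For Il1r1 they were the phospholipid transfer gene Pltp (0.34), Prr29 (0.39) and Tgfbi (0.41). These distances also rest in part on low Th0 counts. In Th0 with Tox2 and with GFP, Pltp had 2 and 5 counts, Prr29 1 and 3, and Tgfbi 2 and 4.

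The remaining IL-17 and ROR genes were looked at by role. Of 10 other IL-17 ligand, receptor and adaptor genes 3 were compared: the receptor chains Il17ra and Il17re and the adaptor Traf3ip2. None passed for Tox2 with edgeR, 0 had an unadjusted p under 0.05 and 0 passed with DESeq2 or limma-voom. Of all genes 6.81% passed with edgeR, so 0 of 3 is a description. Il17ra, the shared chain, had 3553 and 3670 counts in Tfh-like with Tox2 and GFP and 1847 and 1905 in Th0 with Tox2 and GFP. Its log2 effect over both cultures was -0.09 (SE 0.10); that of Traf3ip2 was 0.16 (SE 0.10) and that of Il17re -0.40 (SE 0.32).

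In the list of ROR receptors and partners 0 of 10 genes other than Rora passed with edgeR, DESeq2 or limma-voom, and 2 had an unadjusted p under 0.05 in edgeR, against 3003 of all 10960 genes. That test is of an effect shared by both cultures. In single pairs 0 of the 10 in Tfh-like and 1 of the 10 in Th0 were at least 2-fold lower with Tox2, and 1 had a fold at least 2-fold higher in Tfh-like than in Th0. Over the 10960 genes compared, the shares were 1.9% lower in Tfh-like, 1.56% lower in Th0 and 1.78% with such a higher fold. The corepressor gene Ncor1 had a log2 effect of 0.31 (SE 0.10), the coactivator genes Ncoa2 and Ncoa3 -0.37 (SE 0.10) and 0.17 (SE 0.10), and the oxysterol receptor gene Nr1h2 0.06 (SE 0.10).

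Genes of the Ahr pathway gave no call for Tox2. Of 14 genes beside Ahr 7 were compared, 0 passed with edgeR, DESeq2 or limma-voom, and 2 had an unadjusted p under 0.05 in edgeR. Of all 10960 genes 6.81% passed with edgeR and 3003 had such an unadjusted p, so the counts among 7 genes are a description. Cyp1a1, the classic Ahr target, had 83 counts in Tfh-like with Tox2 and 129 in Tfh-like with GFP, and 71 in Th0 with Tox2 and 64 in Th0 with GFP, and its log2 effect over both cultures was -0.31 (SE 0.27). Arnt, the partner of Ahr on DNA, had an effect of 0.35 (SE 0.11), and Tiparp, a target and inhibitor of Ahr, 0.16 (SE 0.13). The chaperone genes Hsp90ab1 and Ptges3 had effects of -0.16 (SE 0.09) and -0.32 (SE 0.12). With the culture Tiparp rose by 2.02 (SE 0.13, edgeR adjusted p = 0.000284).

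In the IL-1 receptor family and its signalling chain, 1 of 18 genes compared beside Il1r1 rose with Tox2, 1 fell and 16 did not pass, where 4.07% of all genes rose and 2.74% fell. Il1r2, a decoy receptor that binds IL-1 without signalling, had 601 counts in Tfh-like with Tox2 and 238 in Tfh-like with GFP, and 64 in Th0 with Tox2 and 44 in Th0 with GFP. It rose by 1.02 (SE 0.22, edgeR adjusted p = 0.0485). Il1a, encoding the ligand IL-1 alpha, had 5 counts in Tfh-like with Tox2 and 38 in Tfh-like with GFP, and 9 in Th0 with Tox2 and 55 in Th0 with GFP, and it fell by 2.76 (SE 0.39, edgeR adjusted p = 0.0155). Downstream genes had small effects: Myd88 -0.20 (SE 0.10), Irak1 0.21 (SE 0.10), Traf6 0.26 (SE 0.15), Tab2 -0.10 (SE 0.10), Map3k7 -0.01 (SE 0.10) and the negative regulator Sigirr -0.12 (SE 0.10). Il1r2 did not pass with DESeq2, with a filter at 5 CPM, with TMM over the compared genes or with robust estimation.

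Of 29 other Th17 genes compared 2 rose with Tox2 and 5 fell, and 22 did not pass, where 4.07% of all genes rose and 2.74% fell. Those that fell were the chemokine gene Ccl20 (-3.59, SE 0.37), the leukotriene receptor gene Ltb4r1 (-2.68, SE 0.49), Cd5l, a regulator of lipid metabolism in mouse Th17 cells (-1.58, SE 0.17), the transcription factor gene Irf4 (-1.09, SE 0.13) and the IL-6 receptor gene Il6ra (-0.53, SE 0.12). Ltb4r1 had 1 and 2 counts in the Th0 libraries, so its change was measured in Tfh-like, with 12 counts with Tox2 and 84 with GFP. Il6ra was at the edge of the threshold (edgeR adjusted p = 0.0499). With no filter, with a filter at 5 CPM and with TMM over the compared genes 4 of the list fell. Those that rose were Ikzf3, encoding Aiolos (1.58, SE 0.18), and the IL-6 signalling chain gene Il6st (1.40, SE 0.11). The most abundant of the rest were Batf (0.56, SE 0.22), Stat3 (0.46, SE 0.17), Hif1a (-0.23, SE 0.13), Slc2a1 (-0.07, SE 0.13), Fosl2 (-0.06, SE 0.22) and Furin (0.15, SE 0.10). These are effects over both cultures, and several differed between the single pairs. Batf was 2.01-fold higher with Tox2 in Tfh-like and 1.03-fold higher in Th0. Stat3 was 1.08-fold higher in Tfh-like and 1.76-fold higher in Th0. Fosl2 had log2 folds of -0.53 in Tfh-like and 0.43 in Th0, while Furin had 0.15 in both. The median log2 fold of the list was -0.10 in Tfh-like and -0.02 in Th0, where that of all genes was -0.00 in both. With DESeq2 2 rose and 3 fell.

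In a list drawn up for restraint of the Th17 fate 5 of 17 genes rose with Tox2 and 2 fell. Of all genes 4.07% rose and 2.74% fell. The role of the listed genes in that fate was not tested here, and the list was chosen with earlier results of these data known. The 5 that rose were Bcl6, the Tfh repressor (1.45, SE 0.11), Tcf7, encoding TCF-1 (1.14, SE 0.10), and Socs3, the feedback inhibitor of IL-6 signalling (1.01, SE 0.16), with Ets1 (0.63, SE 0.10) and the zinc finger factor gene Klf4 (0.99, SE 0.14). The place of Klf4 in this list is the least settled and is in doubt. The 2 that fell were Twist1 (-1.03, SE 0.23, edgeR adjusted p = 0.0487) and Id3 (-0.49, SE 0.10, edgeR adjusted p = 0.0406), both near the threshold. Il2ra, which encodes the alpha chain of the IL-2 receptor, did not pass, with log2 folds of -2.11 in Tfh-like and 0.00 in Th0; Gfi1 (-0.01, SE 0.10), Il27ra (-0.13, SE 0.10), Egr2 (0.04, SE 0.14), Stat5a (0.07, SE 0.14) and Stat5b (0.26, SE 0.16) did not pass either. In the Tfh-like pair 2 of the list's 17 genes were at least 2-fold higher with Tox2 and 2 lower, where 2.86% and 1.9% of all genes were. In the Th0 pair 4 were higher and 1 lower, where 3.18% and 1.56% of all genes were. Over the 17 genes the median log2 fold was -0.17 in Tfh-like and 0.08 in Th0. With DESeq2 5 rose and 0 fell. With the culture 16 of the 29 other Th17 genes rose and 5 fell, and 10 of the 17 restraint genes rose and 2 fell, where 14.3% of all genes rose and 9.96% fell.

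**Figure D4:**
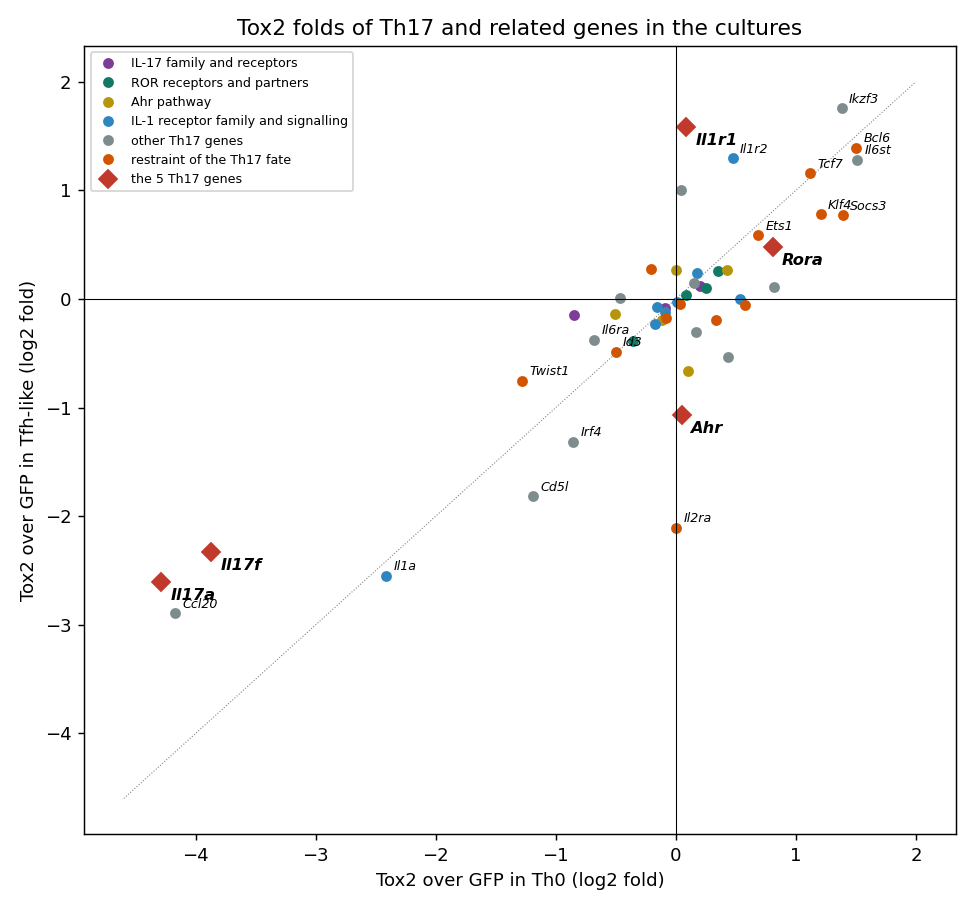
Log2 fold of Tox2 over GFP in Th0 (x axis) and in Tfh-like (y axis) for the 5 genes (diamonds) and the genes of 6 lists given in the text (dots), without genes at 3 counts or fewer in both Th0 libraries; the dotted line marks equal folds. Il17a and Il17f lie at the lower left near Ccl20 and Rora at the upper right. Ahr lies below 0 and Il1r1 above 0 in Tfh-like, and both lie near 0 in Th0 (0.05 and 0.09).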

How the data were processed

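RNA-seq was measured in 4 libraries, 1 per group. Per the file headers, the deposited files give whole-number read counts per gene, not normalized, and FPKM, which the authors computed per length and library. Per the submitters' processing notes the build was mm10 and the tools included featureCounts from Subread, Bowtie2 and Trim Galore 0.4.4, with no roles stated; the sources used here name neither annotation nor strandedness. Total counts were 13015283 to 13673774 over 11027 listed genes; the floor set by 0 counts is 3 counts per library (0.219 to 0.230 CPM).

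Counts were scaled by TMM over all listed genes (edgeR 4.0.16, R 4.3.3), and the 10960 genes that reached 1 CPM in any library were compared. This scaling was preferred to TMM over the compared genes after both results had been seen. Pairs were described by the log2 fold of scaled CPM (prior count 2) with an exact conditional binomial 95% interval; a gene was called 2-fold apart at a log2 fold of at least 1 with an interval excluding 0. The difference of Tox2 folds has a delta-method interval. Culture and virus entered an additive model, tested with edgeR's quasi-likelihood test, Benjamini-Hochberg adjusted over all genes, threshold 0.05; "rose" and "fell" mean past it. The code was tested on simulated data. Alternatives used DESeq2 1.42.0, limma-voom (limma 3.58.1), other scalings, priors and filters. Named list genes are those past the test for Tox2 and the 6 most abundant others. Where a list held fewer, all are given or counted. Some genes that this rule names are not reported here. Positions are from GENCODE M21 (GRCm38), promoters from RefSeq. The genes, lists and comparisons were chosen with earlier results of these data known.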

Additional observations from a re-analysis of the deposited data

Results flagged for a closer look

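The Tox2 fold of Ahr had opposite signs in the cultures: -1.06 on the log2 scale in Tfh-like and 0.0471 in Th0. The counting interval of the Th0 fold, -0.49 to 0.59, includes no difference. With the length trend removed both folds were negative, -1.09 in Tfh-like and -0.0309 in Th0. With 1 library per group the difference between the cultures was not tested.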

How the results depend on the processing

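The 25 log2 folds and fold differences of the 5 genes kept their side of the 2-fold call in 222 of 225 recalculations. Among these, the recalculations with a filter at 5 CPM or with no filter could not differ. They leave the counts and scaling of the 5 genes unchanged, so the total overstates how much was varied. Direction changed in 1 of the 225, the Tox2 fold of Ahr in Th0, never called, which was -0.0309 with the length trend removed. The exceptions to the call were the Tox2 fold difference of Il17a between the cultures, which was no longer called at 1.66 with the authors' scaling read from FPKM, 0.0053 with a prior count of 10 and 1.56 with the length trend removed. For Tox2 over both cultures Il17a had -3.92 with DESeq2 and missed the threshold. Il1r1 passed it with 1.48 in limma-voom, 1.34 with DESeq2 size factors and 1.38 with sums of counts. All 5 culture effects passed throughout. Over all genes 746 passed for Tox2, but 492 with DESeq2 and 1193 with sums of counts; for the culture 2656 passed, but 1609 with DESeq2. Robust estimation and TMM over the compared genes alone, both chosen after seeing the data, gave 663 and 635 for Tox2. Il17a was 19.1%, 22.4% and 8.67% of summed Il17a and Il17f FPKM in Tfh-like with Tox2, Tfh-like with GFP and Th0 with GFP, and 12.0%, 14.3% and 5.21% of counts. The causes were not tested. Other Th17 genes that fell numbered 3 to 7 and those of the restraint list 0 to 3 over the alternatives. No paired analysis was possible because each group has 1 library and the labels number no replicates. No library could be left out, since the additive model then keeps no residual degree of freedom. Depth limits Il17a with 1 read in Th0 with Tox2 and Il1r1 with 9 and 10 reads in Th0.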
